A study of Mus musculus with 8 samples.

Results

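The genes described here code for the proteins of the 2 ribosomes of a liver cell, the cytosolic ribosome (symbols that begin with Rpl or Rps) and the mitochondrial ribosome (Mrpl or Mrps). They were chosen by symbol from the annotation of the array, without the S6 kinases, and not by their values. This gave 118 of 8789 named genes, of which 57 were cytosolic and lay on 88 spots and 61 were mitochondrial and lay on 75 spots. Expression was measured in the liver of 4 male mice without Eps8 (EPS8 -/-, called Eps8KO here), aged 17 weeks. The RNA of each Eps8KO mouse was set against 1 pool of liver RNA from wild-type (WT) males of the same age on 2 cDNA arrays of 2 colours, with the dyes Cy3 and Cy5 exchanged between them. The mice came from heterozygous crosses after repeated backcrossing to C57BL/6, and Eps8 was missing from the whole body and not from hepatocytes alone. The sources name 4, 5 or 6 WT mice for the pool.

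The deposited value is the log2 ratio of Cy5 over Cy3 at a spot, so neither the level of a transcript nor its signal over background is known, and the tissue could not be checked against the levels of its markers. Here the sign was turned where Eps8KO RNA was in Cy3, the 2 arrays of a mouse were averaged, and then the spots of a gene. A ratio below 0 is therefore lower in Eps8KO. The WT pool was a single control sample, so every test against 0 leaves out the spread between WT mice. Eps8 had no named probe here. Fewer cells of a type and less RNA per cell cannot be told apart in whole liver. The arrays held 17968 to 18802 values each, and their median Cy5 over Cy3 lay between -0.28 and -0.08. Names rest on an offset of 32 between the row number and the probe number, which was found earlier from these same values with the help of the noise and dye ratios of abundant genes. The low spread and common dye ratio of ribosomal protein genes are thus no independent evidence of the names. Processed pseudogenes and near-identical copies of ribosomal protein genes are common in the mouse genome, and a cDNA spot may bind transcripts of several of them.

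A ribosome joins amino acids in the order given by a messenger RNA. The cytosolic ribosome makes most proteins of the cell, and in liver this includes albumin and the other plasma proteins. Its protein genes are among the most strongly transcribed, and their messages begin with a C followed by a run of pyrimidines, the 5′ terminal oligopyrimidine (TOP) tract, through which mTOR signalling controls their translation. The mitochondrial ribosome makes a small group of respiratory chain subunits encoded by mitochondrial DNA, while its own proteins are encoded in the nucleus and imported.

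The letters at the start of transcription are shown because a C with 4 pyrimidines after it began some cytosolic and no mitochondrial genes. Sequences are from RefSeq on build GRCm38.p6, which held a promoter (250 bases before to 50 after the start) for 49 of the 57 cytosolic and 54 of the 61 mitochondrial genes. The 4 cytosolic examples were picked for their run. Each line holds 15 bases before the annotated start and 15 from it, and capitals mark the run of C and T that touches the start.
Rplp2, chr7:141447636-141447665 (+): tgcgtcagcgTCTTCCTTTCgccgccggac
Rps6, chr4:86857353-86857382 (-): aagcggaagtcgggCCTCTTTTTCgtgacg
Rps15a, chr7:118116133-118116162 (-): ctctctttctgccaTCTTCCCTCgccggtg
Rps21, chr2:180257364-180257393 (+): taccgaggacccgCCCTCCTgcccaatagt
Mrps6, chr16:92058321-92058350 (+): tgctttcgccgtccgggagctgaccggccg
Mrpl55, chr11:59202471-59202500 (+): cgccctgcgctccgtggcgtcatcaccgcg
The 2 mitochondrial genes have no such run, and neither does a second annotated start of Rps21, which is not printed. Some other mitochondrial genes do hold a run of C and T that touches the start, such as Mrpl45 (10 letters) and Mrpl12 (9). A C at the start followed by 4 further pyrimidines was found in 11 of 49 cytosolic promoters (22.4%), in 0 of 54 mitochondrial ones and in 3.01% of all 27025 genes of the table (2.67% of its protein-coding genes). Where a C followed by 5 pyrimidines was allowed from 5 bases before to 10 after the start, the shares were 38.8%, 5.56% and, for protein-coding genes, 10.8%. Annotated starts can be a few bases off, and the windows of Rplp0, Rpl9 and Rps16 held no run at the start itself.

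Both classes held the core of the ETS site, CCGGAAG, more often than other genes did. On either strand within the promoter window it was present in 42.9% of cytosolic and 38.9% of mitochondrial genes, against 9.93% of all genes and 12.9% of protein-coding genes. This site is bound by ETS factors, among them GABP, which is known for nuclear genes of mitochondria. The windows below show it in capitals, on the strand of the gene, in 2 cytosolic and 2 mitochondrial genes described further on.
Rpl6, chr5:121204502-121204531 (+): ttgcttatagaCCGGAAGccgctgccttag
Rpl39, chrX:37085181-37085210 (-): ctaatcgcgttCTTCCGGtcccggcctttc
Mrps18a, chr17:46110967-46110996 (+): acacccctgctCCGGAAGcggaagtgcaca
Mrps21, chr3:95871478-95871507 (-): cgtagcttccgCTTCCGGtccgcagagacc
The other motifs searched were GCATGCG, the core of the NRF1 site, in 10.2% of cytosolic, 9.26% of mitochondrial and 4.01% of all genes, and TATAAA in 10.2%, 7.41% and 15.7%. Matches are descriptions of letters and not of bound sites.

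Across the livers, the cytosolic genes lay slightly below the WT pool as a group, and no single ribosomal protein gene passed the test after adjustment. Of the 118 genes, 111 had a value in all 4 mice and were tested, 54 cytosolic and 57 mitochondrial. The median log2 ratio was -0.16 for the cytosolic genes, -0.05 for the mitochondrial genes and 0.02 over all 15455 features tested. The mean was -0.06 in both classes, because a few noisy cytosolic spots had very high values. A ratio below 0 was found for 47 of 54 cytosolic genes (87.0%), for 35 of 57 mitochondrial genes (61.4%) and for 47.2% of all features. The shifts were small, with 83.3% of cytosolic and 82.5% of mitochondrial genes within 0.5 of 0 on the log2 scale, close to the 81.6% of all features.

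The test was limma's moderated test of the 4 mouse values against 0, with Benjamini-Hochberg adjustment over all features. At an adjusted p under 0.05 it called 0 of 111 ribosomal protein genes and 0 of 15455 features (0%), and the smallest adjusted p was 0.838 among cytosolic, 0.825 among mitochondrial and 0.119 among all features. At an unadjusted p under 0.05, 4 cytosolic and 2 mitochondrial genes were lower, where 3.09% of all features were, and 1 cytosolic gene was higher, where 2.15% were. Past the fold of 1.6 with that p, the study's own limit, there was only Mrpl55, beside 2.63% of all features in either direction. Counted by mouse, 19 of 54 cytosolic and 5 of 57 mitochondrial genes were below 0 in all 4 mice, beside 7.07% of all features. Above 0 in all 4 mice were 2 cytosolic genes and 1 mitochondrial gene, beside 7.54%. The lower cytosolic share stands well over the background and the mitochondrial share does not, but genes that share a dye ratio are not independent counts.

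**Figure D1:**
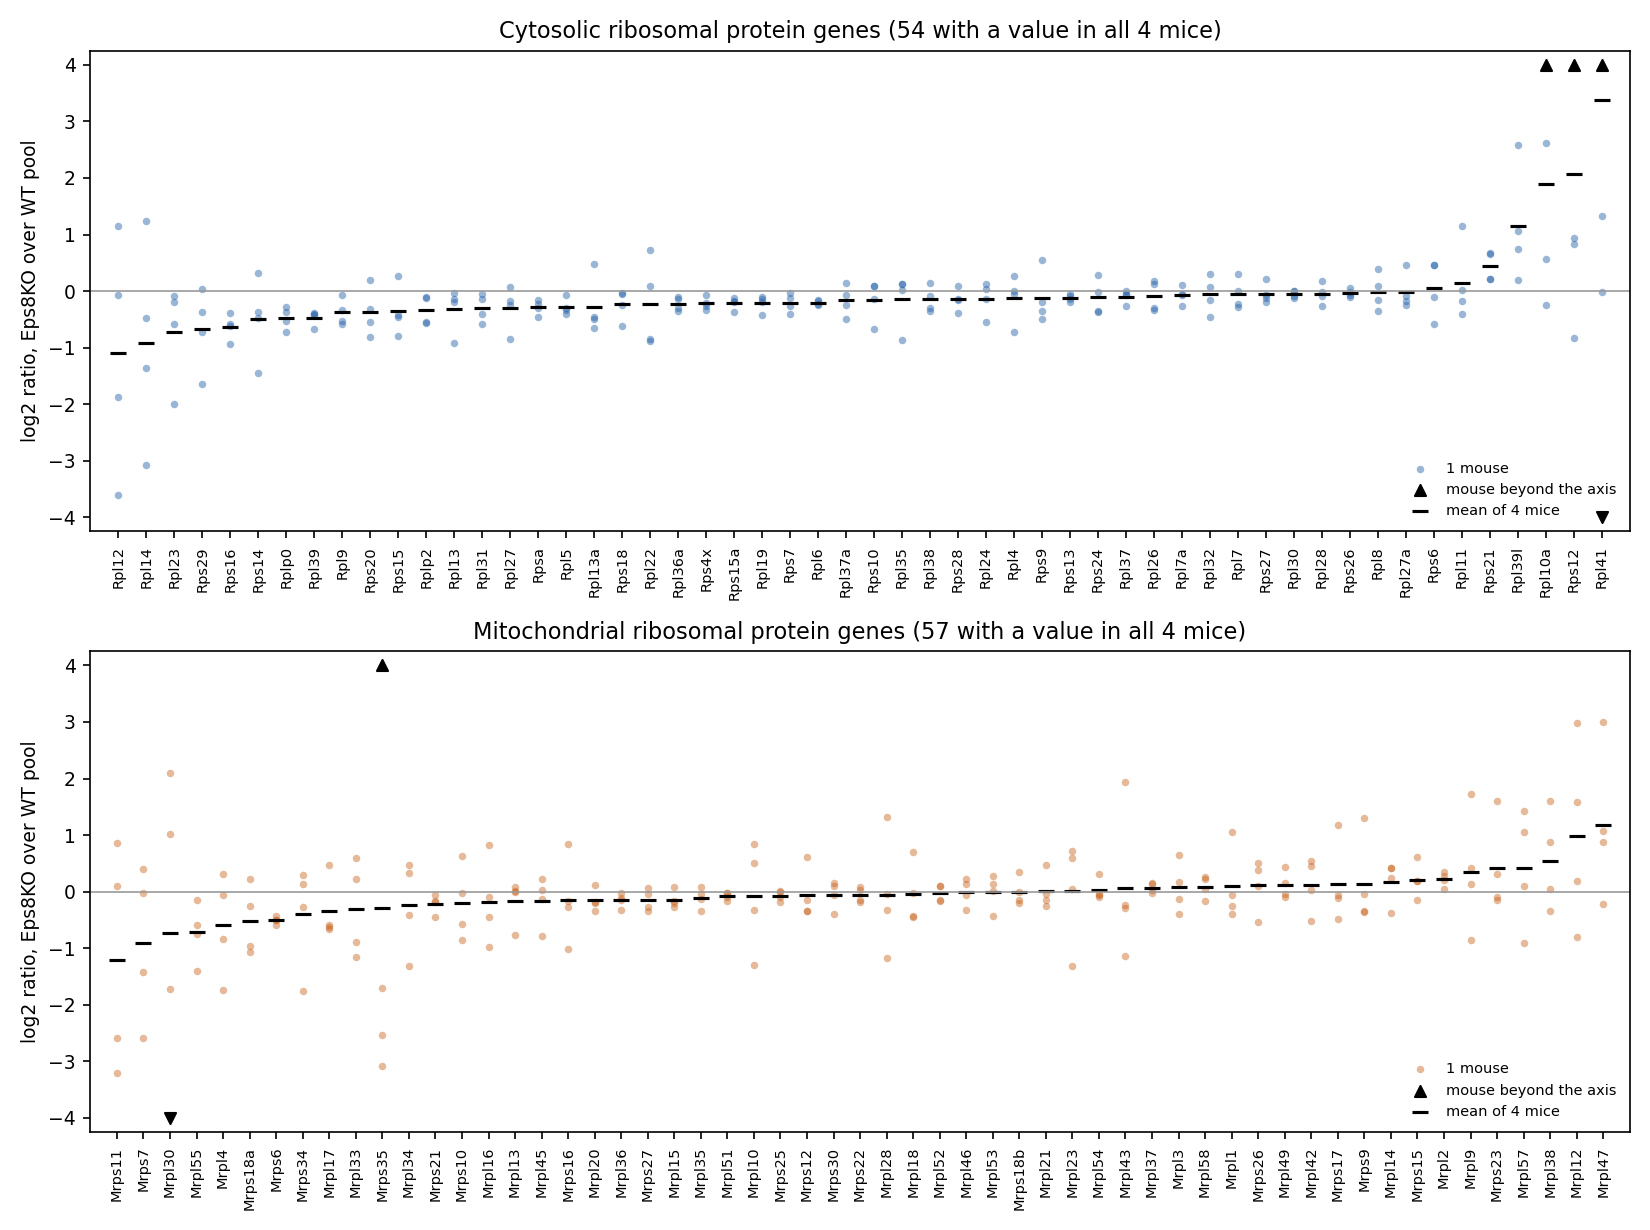
The log2 ratio of Eps8KO over the WT pool for the 54 cytosolic (top) and 57 mitochondrial (bottom) genes with a value in all 4 mice, ordered by mean. Points are mice, bars are means of 4 mice, and triangles are mice beyond the axis of -4 to 4. The means of 47 cytosolic and 35 mitochondrial genes lie below 0.

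Mouse by mouse, the cytosolic median was -0.19, -0.08, -0.10 and -0.27 in mice 1 to 4 (mean -0.16 ± 0.08 SD, n = 4). It was below 0 in 4 of 4 mice, and below the median of all features, which lay between -0.004 and 0.021. The mitochondrial median was -0.03, -0.15, -0.03 and -0.03 (mean -0.06 ± 0.06 SD, n = 4). The cytosolic median was lower than the mitochondrial one in mice 1, 3 and 4 and higher in mouse 2, with differences of -0.16, 0.06, -0.07 and -0.23 (mean -0.10 ± 0.13 SD). The spread between mice was as large as this difference.

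**Figure D2:**
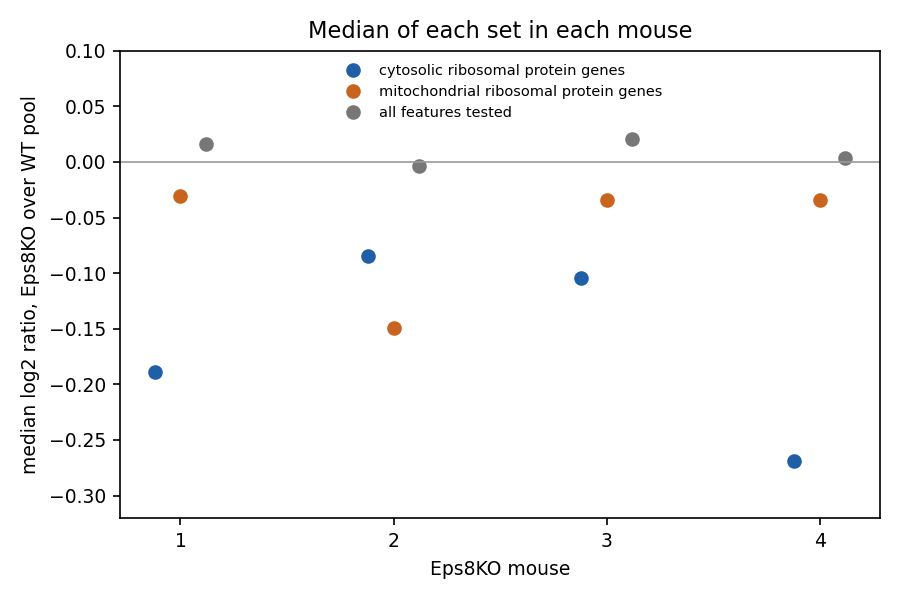
Median log2 ratio of Eps8KO over the WT pool in each of the 4 mice for cytosolic genes, mitochondrial genes and all features tested. The cytosolic medians run from -0.27 to -0.08 and are lower than the mitochondrial ones in mice 1, 3 and 4 but not in mouse 2.

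Both subunits of the cytosolic ribosome lay on the same side. The median was -0.16 over 34 large subunit genes, of which 30 were below 0, and -0.18 over 20 small subunit genes, of which 17 were. In the mitochondrial ribosome it was -0.01 over 37 large subunit genes (20 below 0) and -0.11 over 20 small subunit genes (15 below 0), by the letter of the symbol.

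Restricted to spots with a value on all 8 arrays, so that each mouse had both dye orientations, the cytosolic pattern was tighter. Of 48 cytosolic genes, 47 were below 0 (97.9%), against 28 of 46 mitochondrial genes (60.9%) and 45.4% of 11602 features. The exception was Rpl39l. The cytosolic median was -0.22 (0.862 of the WT pool), and by mouse it was -0.27, -0.09, -0.15 and -0.27. The mitochondrial median was -0.05, and by mouse -0.06, -0.06, -0.03 and -0.02, so that the cytosolic median was the lower one in 4 of 4 mice. In all 4 mice 23 of the 48 cytosolic and 5 of the 46 mitochondrial genes were below 0, beside 7.63% of the features. At an unadjusted p under 0.05 (limma), 7 cytosolic genes were lower, namely Rplp0, Rpl39, Rps14, Rpl9, Rps21, Rpsa and Rpl5, beside 3.71% of the features and 1 mitochondrial gene, Mrpl55. One cytosolic gene, Rpl39l, was higher at that p (unadjusted p = 0.0342, adjusted p = 0.739). None of these genes had an adjusted p under 0.534.

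The dye moved with this result. Unturned, the median Cy5 over Cy3 of the cytosolic genes was 0.38, with 42 of 54 above 0, against -0.14 for the mitochondrial genes (23 of 57 above 0) and -0.23 for all features (30.4% above 0). In a fit of the 8 arrays with a dye term and the mouse as a random block (limma), 21 of 50 cytosolic and 3 of 46 mitochondrial genes were brighter in Cy5 at an adjusted p under 0.05, beside 5.99% of 11727 features, and 2 cytosolic genes and 1 mitochondrial gene were dimmer, beside 8.17%. By their median, cytosolic ribosomal protein genes were therefore brighter in Cy5 whichever RNA carried it, though not every gene was.

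This excess was larger when Cy5 carried the WT pool, and a spot measured on both arrays of a mouse has a ratio below 0 in that mouse where this is so. In mouse 1 the cytosolic median of Cy5 over Cy3 was 0.02 with Eps8KO RNA in Cy5 and 0.50 with WT RNA in Cy5. The same pair of values was 0.24 and 0.54 in mouse 2, 0.34 and 0.67 in mouse 3, and 0.46 and 0.96 in mouse 4. The array with WT in Cy5 was thus the higher one in 4 of 4 mice. These array medians themselves ranged from 0.02 to 0.96, so the dye excess of the set was not the same from array to array, and its part in the lower ratio was not tested. The mitochondrial medians ran from -0.23 to 0.13 and gave no common order, with the array of WT in Cy5 higher in mice 2 and 3 and lower in mice 1 and 4.

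**Figure D3:**
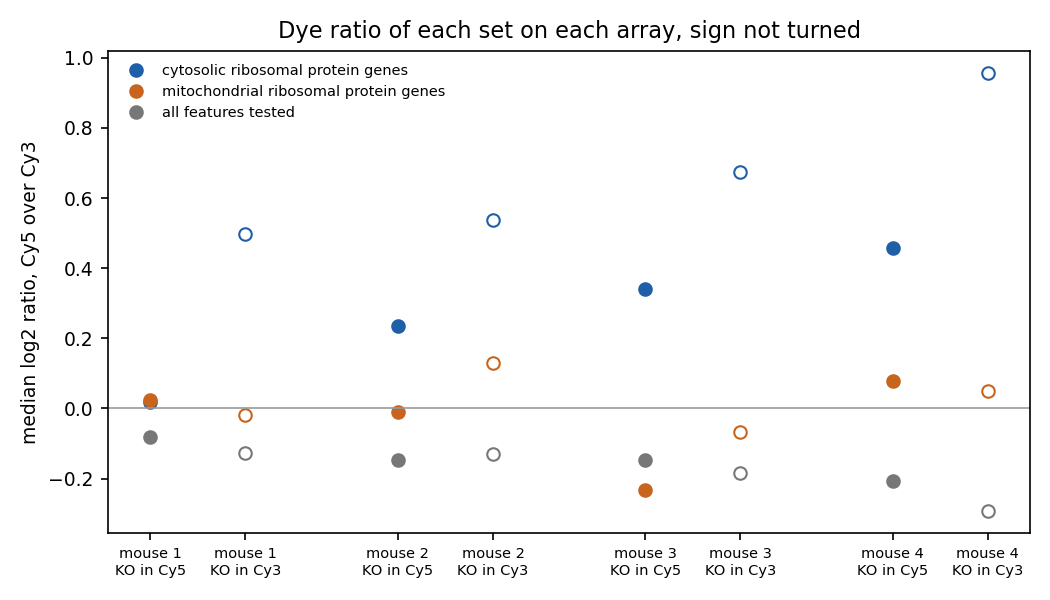
Median log2 ratio of Cy5 over Cy3 on each of the 8 arrays, sign not turned, for cytosolic genes, mitochondrial genes and all features tested. Filled points are arrays with Eps8KO RNA in Cy5 and open points arrays with Eps8KO RNA in Cy3. The open cytosolic point lies above the filled one in each of the 4 mice, and cytosolic medians reach 0.96 while all features stay below 0.

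Features with a like dye ratio were set beside the cytosolic genes, as a description in a range chosen after the values were seen. Between the lower and upper quartile of the cytosolic genes measured on all 8 arrays, Cy5 over Cy3 was 0.10 to 0.63. In that range the median Eps8KO ratio was -0.01 over 2576 features, of which 54.3% were below 0. It was -0.22 over 24 cytosolic genes (23 below 0) and -0.04 over 14 mitochondrial genes (9 below 0). Across genes on all 8 arrays, the Eps8KO ratio and the dye ratio had a Pearson r of -0.22 over 50 cytosolic and 0.31 over 46 mitochondrial genes. By rank (Spearman) the values were -0.31 and 0.17. Both are descriptions over genes that share arrays.

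Among large subunit genes of the cytosolic ribosome, the lowest p belonged to Rpl39, a very small protein that lines the exit tunnel of the growing chain. Its log2 ratio was -0.39, -0.40, -0.67 and -0.43 in mice 1 to 4, below 0 in each. The mean was -0.47 ± 0.13 (SD, n = 4), or 0.720 of the WT pool (limma, unadjusted p = 0.0128, adjusted p = 0.848). With Eps8KO in Cy5 its mean was 0.004 and with Eps8KO in Cy3 it was -0.95, values that include the dye ratio described above.

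Rplp0, the base of the acidic stalk that recruits elongation factors and a common reference gene, had -0.27, -0.52, -0.37 and -0.73 (mean -0.47 ± 0.20, limma unadjusted p = 0.0190, adjusted p = 0.906). Both of its spots were measured on all 8 arrays and both lay below 0, at -0.72 and -0.23. By orientation the means were 0.36 with Eps8KO in Cy5 and -1.31 with Eps8KO in Cy3. Its partner in the stalk, Rplp2, had -0.55, -0.12, -0.11 and -0.56 (mean -0.34 ± 0.25), again below 0 in 4 of 4 mice. Rplp1, the other partner, had values in 3 mice, -1.14, 0.15 and 0.003, and was not tested.

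Rpl9, a protein of the large subunit near the stalk, had -0.52, -0.07, -0.58 and -0.34 (mean -0.38 ± 0.23, limma unadjusted p = 0.0489, adjusted p = 0.906). Rpl5, which joins the 5S ribosomal RNA and, when free, binds Mdm2, had -0.41, -0.30, -0.07 and -0.33 (mean -0.28 ± 0.15, adjusted p = 0.906). Its partner Rpl11 has 2 spots that disagree, at -0.19 on all 8 arrays and at 2.5 from 2 arrays of mouse 3 alone, and its gene mean of 0.15 ± 0.69 rests on that second spot. Rpl6 showed the smallest spread of the large subunit genes below 0 in all 4 mice named here, with -0.17, -0.24, -0.16 and -0.24 (mean -0.20 ± 0.04). This narrow spread arose from the mean of 2 spots that differed by mouse. The first had 0.015, -0.37, -0.23 and -0.12, and the second -0.35, -0.10, -0.10 and -0.36. Apart from Rpl11 and the untested Rplp1, the genes named up to here had means between -0.20 and -0.47, short of 1.6-fold. Several were named for a low p, and Rpl6 after its values were seen, so this range is not that of the subunit. On spots with all 8 arrays, other large subunit genes ran from -0.72 (Rpl23) to -0.01 (Rpl27a), with Rpl39l at 1.15.

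Larger values in the large subunit came with a wide spread or with spots that disagreed. Rpl14 had a mean of -0.92 ± 1.80 over 3 spots, of which 2 measured on all 8 arrays lay at -0.30 and -0.20 and the third, measured on 5 arrays and holding a value at the upper limit of its array, at -2.27. Rpl23, which like Rpl5 can bind Mdm2, had -0.08, -0.59, -0.20 and -2.00, with a dye ratio opposite to most of its class (Cy5 over Cy3 -2.76). The 2 spots of Rpl22 gave -0.73 and 0.27. None of these 3 genes had an unadjusted p under 0.05 in the test over all spots.

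Rpl39l stood on the other side. It is a relative of Rpl39 known for its expression in testis. Its ratio was 2.58, 0.20, 0.74 and 1.07 (mean 1.15 ± 1.02, n = 4; limma adjusted p = 0.906), above 0 in 4 of 4 mice. In the fit of spots on all 8 arrays the unadjusted p was 0.0342. Its dye ratio was also reversed against Rpl39, at -2.07 against 0.48, and its mean was -0.93 with Eps8KO in Cy5 and 3.22 with Eps8KO in Cy3. Whether this spot was above background is not known here.

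In the small subunit, Rps16, whose tail reaches the site where messenger RNA and transfer RNA meet, had the lowest p. Its ratio was -0.94, -0.61, -0.58 and -0.38 (mean -0.63 ± 0.23, 0.647 of the WT pool; limma unadjusted p = 0.00866, adjusted p = 0.838). It was below 0 in 4 of 4 mice, but it had 7 of 8 arrays, and in mouse 1 its arrays gave -4.10 and 2.22 before averaging. Rpsa, a small subunit protein also known as a laminin receptor, had -0.16, -0.22, -0.29 and -0.46 (mean -0.28 ± 0.13, adjusted p = 0.906), with the Eps8KO in Cy5 array above the Eps8KO in Cy3 array in each mouse.

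Rps14 and Rps21 changed with the choice of spots. The spot of Rps14, a protein of the platform of the small subunit, that was measured on all 8 arrays had -0.45, -0.23, -0.45 and -0.44 (mean -0.39 ± 0.11; limma on such spots, unadjusted p = 0.0113, adjusted p = 0.644). The other spot had 4 values, and together they gave -0.49 ± 0.73. Rps21 had 5 spots. The 2 spots measured on all 8 arrays had means of -0.42 and -0.29, and the 3 spots measured on 5 to 7 arrays had 0.97, 1.51 and 0.50. Over its 5 spots Rps21 was the cytosolic gene counted as higher, with 0.68, 0.66, 0.22 and 0.21 (mean 0.44 ± 0.26, limma unadjusted p = 0.0377, adjusted p = 0.906). Over the complete spots it was lower, at -0.36, -0.46, -0.35 and -0.25 (mean -0.35 ± 0.09, unadjusted p = 0.0152, adjusted p = 0.672).

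Rps6, the substrate of the S6 kinases and one of the genes whose TOP tract is printed above, did not lean to either side. Its ratio was 0.45, -0.58, -0.10 and 0.47 (mean 0.06 ± 0.50, adjusted p = 0.966), and its spot on all 8 arrays had -0.18 ± 0.28. Rps15a, another of those genes, had -0.19, -0.18, -0.37 and -0.13, below 0 in 4 of 4 mice. Rps29 had 0.04, -0.73, -0.37 and -1.65 (mean -0.68 ± 0.72), with mouse 4 the lowest.

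The 3 highest cytosolic means came with a wide spread over mice, and so did the lowest, Rpl12 at -1.10 ± 2.09 on 6 arrays. Rpl10a, a protein of the large subunit near the exit site of transfer RNA, had 2.62, 4.65, 0.56 and -0.25 on 6 arrays (mean 1.89 ± 2.20; limma unadjusted p = 0.0975, adjusted p = 0.906). Rps12 had 7.35, 0.84, -0.84 and 0.94, and the first of these came from a spot with a value at the upper limit of its array. Rpl41, which codes for the shortest protein of the ribosome, had a mean of 3.38 ± 8.88 on 5 arrays and also held an upper-limit value. Without values at the upper limit, the cytosolic median was -0.16, as before. Rps27l, a relative of Rps27 induced by p53, and Rps19 were not tested for want of values in 1 or more mice.

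The mitochondrial genes lay closer to 0 and had a wider spread, with a median SD over mice of 0.48 against 0.27 for the cytosolic genes and 0.43 for all features. Mrps6, related to the bacterial S6 protein, had the lowest p of the class, with -0.59, -0.51, -0.44 and -0.51 (mean -0.51 ± 0.06; limma unadjusted p = 0.00688, adjusted p = 0.825). This narrow spread arose from 2 spots that ran against each other. One spot, measured on 5 arrays, had -1.58, -0.34, -1.44 and 0.41, and the other, measured on 8, had 0.41, -0.67, 0.57 and -1.42, so that neither was below 0 in all 4 mice. By orientation the mean of Mrps6 was -1.14 with Eps8KO in Cy5 and 1.06 with Eps8KO in Cy3.

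Mrpl55, a protein of the mitochondrial large subunit without a bacterial relative, had -0.14, -0.74, -0.59 and -1.40 (mean -0.72 ± 0.52, 0.607 of the WT pool; limma unadjusted p = 0.0336, adjusted p = 0.906). It was below 0 in 4 of 4 mice on 8 of 8 arrays, with -2.18 for Eps8KO in Cy5 and 0.74 for Eps8KO in Cy3. Mrps21 had -0.17, -0.19, -0.05 and -0.45 (mean -0.21 ± 0.17, adjusted p = 0.906) and was also below 0 in 4 of 4 mice.

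Mrpl2, related to a bacterial protein at the peptidyl transferase centre, was the mitochondrial gene above 0 in 4 of 4 mice. Its ratio was 0.05, 0.34, 0.20 and 0.28 (mean 0.22 ± 0.12, or 1.16 of the WT pool; limma unadjusted p = 0.125, adjusted p = 0.906). Both orientations had the same sign, 0.35 with Eps8KO in Cy5 and 0.09 with Eps8KO in Cy3.

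Mrpl12, related to the bacterial stalk protein and known to bind the mitochondrial RNA polymerase, had 1.59, -0.81, 2.98 and 0.19 on 7 arrays (mean 0.99 ± 1.65, adjusted p = 0.906). The Mrps18 proteins are relatives of 1 bacterial protein. Mrps18a, which despite its symbol belongs to the large subunit, had -1.06, -0.26, 0.22 and -0.97 (mean -0.52 ± 0.61). Mrps18b had a mean of -0.002 ± 0.24, from spots at -0.55 and 0.54.

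The remaining named mitochondrial genes spread over both signs between mice. Mrps11 had the lowest mean of those tested, -1.21 ± 1.99 on 7 arrays. Mrps7 had -0.91 ± 1.36 on 6 arrays, Mrpl4 -0.58 ± 0.91 and Mrpl17 -0.35 ± 0.55, the last from 3 spots between -0.98 and 0.05. Mrpl10 had -0.07 ± 0.95 with spots at -0.88 and 0.31. On the higher side were Mrpl47 with 1.18 ± 1.34 on 6 arrays, Mrpl57 with 0.42 ± 1.05, Mrps23 with 0.41 ± 0.81 and Mrpl9 with 0.35 ± 1.07. In each of these the SD over mice was larger than the mean. Mrpl11, Mrps24, Mrps5 and Mrps36 were not tested for want of values in 1 or more mice. Mrps36 is now placed in the 2-oxoglutarate dehydrogenase complex.

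**Figure D4:**
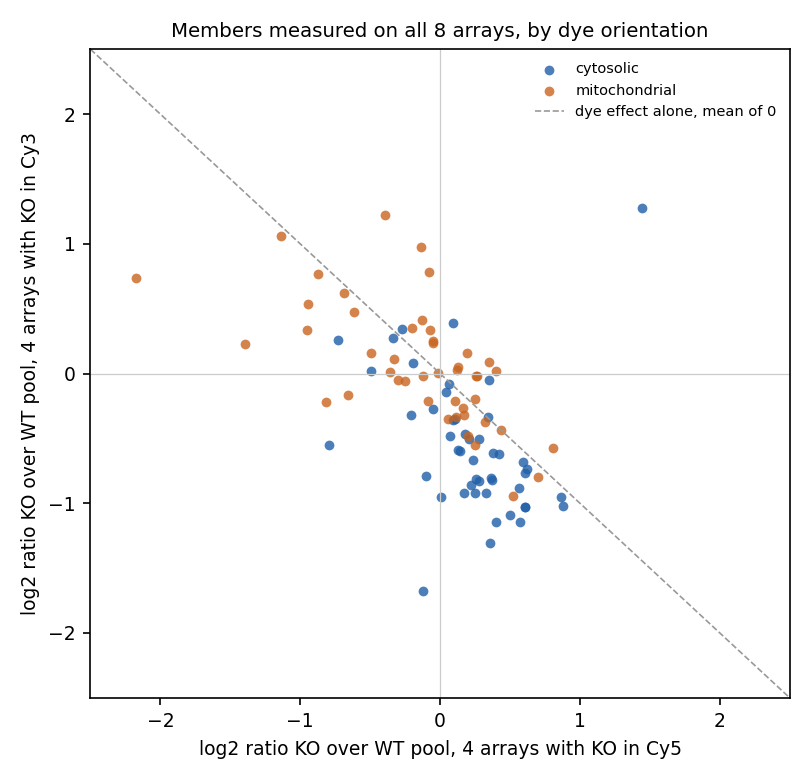
Mean log2 ratio of Eps8KO over the WT pool where Cy5 labelled Eps8KO (4 arrays, horizontal) and where Cy3 did (4 arrays, vertical), for 50 cytosolic and 46 mitochondrial genes measured on all 8 arrays. On the dashed line a dye effect alone would give a mean of 0. Most cytosolic genes lie to the lower right and below the line, mitochondrial genes lie on both sides of it, and 2 cytosolic genes, Rpl23 and Rpl39l, are outside the axes.

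The classes were alike in the completeness of their spots, less so in that of their genes, and differed in the spread between arrays. Values on all 8 arrays were present for 72.7% of cytosolic and 72.0% of mitochondrial spots and for 65.5% of all spots. By gene, after spots were averaged, the shares of those tested were 92.6% and 80.7%, and 75.9% of all features. The median SD between arrays of 1 orientation was 0.436 at cytosolic, 0.679 at mitochondrial and 0.636 at all spots. These arrays hold different mice, so this SD includes differences between mice.

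Among other genes of translation, the factors of initiation and elongation stood nearest to the cytosolic ribosome by their median. Of 40 tested, 30 were below 0, with a median of -0.16 and a Cy5 over Cy3 of 0.16. By mouse the median was -0.07, -0.22, 0.0002 and -0.18, so it was not below 0 in mouse 3. The median SD over mice was 0.41. Eif1a, a factor of start codon scanning, had -0.88, -0.86, -1.05 and -1.16 (mean -0.99 ± 0.14; limma unadjusted p = 0.000708, adjusted p = 0.454), lower with Eps8KO in Cy5 (-0.70) and in Cy3 (-1.28). Eif2s3x, the X-linked gamma subunit of eIF2, had the opposite sign, at 0.57 ± 0.41 (adjusted p = 0.906). The other 38 factors had an unadjusted p of 0.05 or more, Eif4a3 included (-0.63 ± 0.61).

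Ribosome biogenesis did not follow the cytosolic ribosomal proteins. Its 45 tested genes had a median of 0.02, with 21 below 0, and a Cy5 over Cy3 of -0.19. The part of the dye ratio in this contrast was not tested. Gtpbp4, a GTPase of large subunit assembly, had -0.55 ± 0.21 and Bms1, a GTPase of small subunit assembly, -0.64 ± 0.33, both below 0 in 4 of 4 mice and both with an adjusted p over 0.8 (0.848 and 0.888). Ddx47 had 1.69 ± 1.91. No gene of this list had an unadjusted p under 0.05 in the higher direction.

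For mitochondrial translation outside the ribosome, 33 genes had a median of -0.005. Gadd45gip1, now counted among the mitochondrial ribosomal proteins under another name, had 0.84, 0.62, 0.39 and 0.96 (mean 0.70 ± 0.25; limma unadjusted p = 0.00650, adjusted p = 0.817). The initiation factor gene Mtif3 had 0.50, 0.65, 0.71 and 0.28 (mean 0.53 ± 0.19, adjusted p = 0.848) and Gatc, of the glutamyl-tRNA amidotransferase, 0.37 ± 0.36. Gadd45gip1 also belongs to a list of 11 tested ribosomal proteins and relatives whose symbols the rule does not take. That list had a median of -0.005, with Rps3a1 at -0.20 ± 0.16 and Chchd1 at 0.21 ± 0.19.

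Genes of signalling and charging lay near 0. The 21 genes listed for mTOR and S6 kinase signalling had a median of 0.02 and a Cy5 over Cy3 of -0.26. Of these, 0 had an unadjusted p under 0.05 (limma). Rptor, the scaffold of mTOR complex 1, had -0.52 ± 0.40 and Sesn2, an inhibitor of that complex, 0.68 ± 0.71. Pdk1, also on the list, had 0.32 ± 0.33, but this symbol stands for a pyruvate dehydrogenase kinase. The kinase of the mTOR pathway with a like name, Pdpk1, had 0.13 ± 0.27. The 17 cytosolic aminoacyl-tRNA synthetases had a median of -0.04, a Cy5 over Cy3 of -0.15, and also 0 at that p. Tars had -0.26 ± 0.19, Vars -0.27 ± 0.28 and Wars -0.60 ± 0.97. No gene of these lists had an adjusted p under 0.05.

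Markers of liver cell types were measured beside these genes, and their part in the ribosomal protein ratios was not tested. Hepatocyte markers had a median of 0.17 over 9 genes, of which 3 were below 0, and by mouse 0.02, 0.33, 0.19 and -0.20. Their median Cy5 over Cy3 was 0.77, beside 0.38 for the cytosolic ribosomal proteins, and its part in either Eps8KO ratio was not tested. Apoa1 had 0.34 ± 0.14 (adjusted p = 0.906), Alb 0.30 ± 0.32 and Serpina1b -0.20 ± 0.13. The median was 0.08 over 6 Kupffer cell and macrophage markers (2 below 0), -0.28 over 6 endothelial markers (4 below 0) and -0.10 over 7 stellate cell and fibroblast markers (4 below 0).

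It was -0.05 over 5 cholangiocyte markers (3 below 0), 0.13 over 7 lymphocyte markers (2 below 0) and 0.10 over 3 red blood cell markers (1 below 0). Krt7, a keratin of bile duct cells, had -1.26, -1.09, -1.74 and -1.96 on 4 arrays (mean -1.51 ± 0.40; limma adjusted p = 0.454), while Krt19 of the same cells had 0.14 ± 0.20 on 8 arrays. Of the endothelial markers, Vwf had -3.93, -0.44, -1.14 and -0.76, Kdr -1.04 ± 1.16 and Pecam1 -0.44 ± 0.50. No marker had an adjusted p under 0.05.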

How the data were processed

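The authors hybridised liver cDNA of 4 Eps8KO mice and of a WT pool to 2-colour arrays and deposited log2 ratios of Cy5 over Cy3. The methods describe normalisation by total intensity (mean log2 ratio 0), a background check, a flip dye consistency check and SAM. Whether the deposited values come after these steps is not given in the sources used here, and the array means were -0.39 to -0.18. Rows were named through the platform annotation with a row offset of 32 (12367 of 20355 rows), and all 118 member symbols were found in RefSeq. Ratios were turned, averaged per mouse and then per gene, and tested against 0 with limma 3.58.1 (R 4.3.3) over 15455 features with a value in 4 mice, with Benjamini-Hochberg adjustment. The script was tested on simulated data. The 2 classes were compared by medians, with no test. The members, lists and rules were chosen with earlier results of these data known. Named were the 8 lowest p per class, the 4 highest and 4 lowest means on all 8 arrays, genes whose spots differed by over 1, fixed genes of known role (Rps3, Rpl3, Rpl3l and Mrps18c had no named spot), and the 3 lowest p of each other list. Rpl6, Rps15a, Rpl10a, Rpl12, Rpl41, Rps19, Mrpl11, Mrps11, Mrps24, Mrps5 and Mrps36 were added after their values were seen. Alternatives changed centring, missing values, flip dye limits, upper-limit values, orientation, replicate unit, spots, naming, the prior and the mice used. The number of arrays limits the precision.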

Additional observations from a re-analysis of the deposited data

Results flagged for a closer look

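Of 72 values over 4 mice that were tested with Dixon's test, 3 had 1 mouse far from the other 3, where chance gives about 1 in 20. For Rpl39, mouse 3 had -0.672 on the log2 scale and the others -0.43 to -0.39. For Mrpl17, mouse 4 had 0.470 and the others -0.65 to -0.59, and this came from the spot with 7 arrays, where mouse 4 had 1.80 and the others -2.11 to -1.81. The median of the mitochondrial genes was -0.149 in mouse 2 and -0.03 in the others.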

How the results depend on the processing

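Over all alternatives run, no ribosomal protein gene reached an adjusted p under 0.05. The choice of dye orientation moved the results most. With the arrays of Eps8KO in Cy5 alone the cytosolic median was 0.22 and its difference from the mitochondrial median 0.30. Of 50 cytosolic genes, 2 were lower (12.6% of all features) and 9 higher (612 of 13145 features) at an unadjusted p under 0.05. The sign turned for Rpl39 (0.0037), Rplp0 (0.36), Rpl9 (0.17) and Mtif3 (-0.47). With Eps8KO in Cy3 alone the cytosolic median was -0.60, the mitochondrial median 0.0221, the difference -0.63, 27 cytosolic and 4 mitochondrial genes were lower at that p (6.94% of all features), 11 features passed after adjustment, and Mrps6 (1.06), Mrpl55 (0.74) and Apoa1 (-0.64) turned. Each of these fits holds the dye ratio, which the mean of both orientations removes where it is equal. With values on all 8 arrays, 7 cytosolic genes and 1 mitochondrial gene were lower (3.71%), 12 features passed after adjustment, and Rps21 turned to -0.35. A flip dye difference of at most 1 left 7 cytosolic genes, of which 2 were lower, with 0 mitochondrial genes (2.78%) and 3 adjusted features. The 8 arrays as replicates gave 2 and 0 (1.91%) with 11 adjusted. The dye term with the mouse as a random block gave 7 and 0 (3.83%) with 35 adjusted. With 1 feature per spot, 8 of 81 cytosolic and 2 of 70 mitochondrial spots were lower (3.2% of all features). Names without the offset gave medians of 0.0709 and 0.0395 (difference 0.0314) and turned Rps16 (0.56), Rpl39 (0.0701), Mrps6 (0.0491), Mrpl55 (0.0395), Eif1a (0.27), Gtpbp4 (0.52), Gadd45gip1 (-0.0489), Mtif3 (-0.0845) and Apoa1 (-0.16), since other rows then bear these names. Leaving out 1 mouse at a time, the cytosolic median stayed between -0.21 and -0.16 and the mitochondrial median between -0.07 and -0.02. The difference stayed between -0.18 and -0.09, and adjusted calls over all features at 0. In these fits 1 to 5 of 54 cytosolic genes were lower at that p (1 without mouse 3). Of 57 mitochondrial genes, 1 to 3 were lower (1 without mouse 2). The share over all features ran from 2.43% without mouse 3 to 2.94% without mouse 2. Of the single gene values under the alternatives, 781 kept their direction and side of that p. Another 36 changed sign within 1 SD over mice without passing it in the first place. With the sign kept, 51 lost and 63 gained it. A further 17 turned in sign, as named above. The 53 others moved by more than that SD, and 41 of these changed sign. No paired analysis was possible because each ratio was set against the same WT pool and there was 1 group.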
